A study of Mus musculus with 41 samples.

Results

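The comparison sets the mature B cells of Hardy fraction F against common lymphoid progenitors (CLP), the last and the earliest of the 7 populations that were sorted along mouse B cell development. The members are the 5 arrays whose titles name fraction F and the 7 arrays whose titles name CLP, 12 of the 41 arrays in all, and each difference is F minus CLP. Each array holds one RNA sample of cells sorted by flow cytometry from C57BL/6 mice that were wild type for Pax5, the gene of a transcription factor that B lineage commitment requires. All 41 samples share this strain and genotype, and the labels name no treatment. Total RNA was extracted with the PicoPure kit, amplified with the NuGEN Ovation Pico system and labelled with biotin before hybridisation. Age, sex, tissue of origin and sorting gates are not given in the sources used here. Nothing says that the arrays of a population came from separate mice, so a p-value here reflects variation among these arrays alone, and part or all of that variation may be technical.

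A common lymphoid progenitor can still give rise to several lymphoid cell types, divides, and depends on the cytokine receptors Flt3 and Il7r. On the way to fraction F a cell assembles its immunoglobulin genes with the Rag recombinase, passes a checkpoint at which the heavy chain pairs with the surrogate light chain, and leaves the cell cycle. The mature cell waits in the circulation and the follicles with an antigen receptor, co-receptors that set its threshold, MHC class II molecules that present antigen to T cells, and receptors that guide it to the follicle.

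The deposited values are MAS5 signals, which are array intensities on a linear scale that the authors scaled so that each array has a trimmed mean of 500. A difference is therefore relative to the rest of the array, and in sorted bulk samples fewer cells of a type and less RNA per cell cannot be told apart. Differences and their standard errors (SE) are on the scale log2(signal + 32), which shrinks the differences of dim genes. They come from limma over 34945 probe sets with 1 gene symbol, with p-values adjusted by the method of Benjamini and Hochberg over all of them, and a gene was called at an adjusted p under 0.05. A gene with several probe sets is read from the one that was brightest by its mean over the 12 arrays, and signals of different genes are not compared with each other. The number of arrays limits the precision.

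The label of each population was set against its markers. Of 23 surface genes of mature B cells on the array, 21 rose in F and 0 fell, with a median log2 difference of 3.23. Of 14 progenitor markers, 11 fell in F and 3 rose, with a median of -2.29. The largest rise among these markers was 2.96, and for 2 of them every F array lay above every CLP array, so not all progenitor markers followed the label. Flt3, the receptor that defines lymphoid progenitors, gave signals of 57.7, 17.4, 8.5, 60.1 and 74.9 on the F arrays, against a lowest of 1904, a median of 2099.9 and a highest of 2941 on the CLP arrays. Il7r, the receptor chain for interleukin 7, gave 1686, 1529, 1247, 1549 and 1487 on the F arrays, against a lowest of 6715, a median of 8238 and a highest of 10658 on the CLP arrays. Every F array lay below every CLP array for both receptors, and the log2 differences were -5.05 (SE 0.23, adjusted p = 1.68e-12) for Flt3 and -2.48 (SE 0.10, adjusted p = 7.76e-13) for Il7r. Markers of pro-B and pre-B cells were not low on the CLP arrays. Ebf1 averaged 3692 in CLP, 197 in fraction A and 5110 in F, and Igll1 2215, 189 and 1806 in that order. Pax5 and Vpreb1 are given below. The part of cells already committed to the B lineage in the CLP values was not tested.

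The CLP arrays differed among themselves. Arrays 1 to 3 had median signals of 123.5 to 130.4 and arrays 4 to 7 of 110.0 to 115.0, and the F arrays had 117.2 to 132.9. Jchain, the joining chain of secreted antibody, stood at 1053, 1660.3 and 2562 on CLP arrays 1 to 3, at 8277 and 6636 on arrays 4 and 5, and at 16092 and 18936 on arrays 6 and 7. CLP arrays 6 and 7 were also the highest of the 7 for Egr1 and Fos, which encode transcription factors that cells induce within minutes of a stimulus, with 4824 and 7453 for Egr1 and 6796 and 8971 for Fos, while the other 5 CLP arrays reached at most 1818 and 3869. Results that touch these genes are given with and without those arrays, and the part of the split in any result was not tested. Within a population the arrays correlated with the mean of the others at 0.969 to 0.975 for F and 0.977 to 0.990 for CLP, and no 2 arrays were identical.

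**Figure D1:**
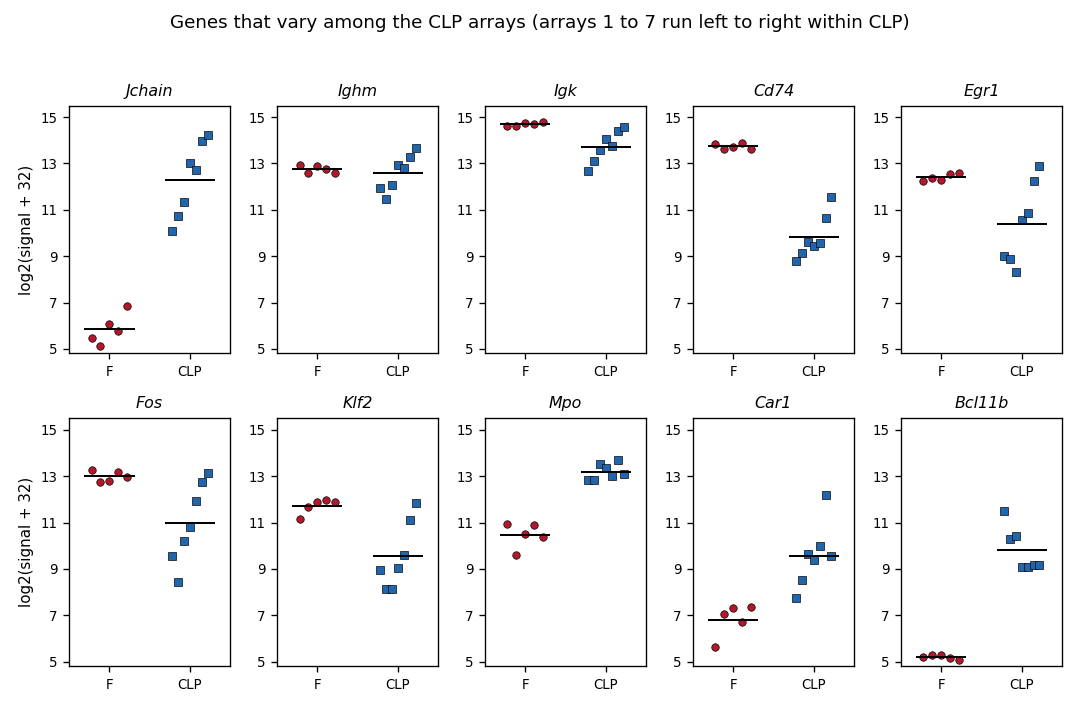
Signal on a log2(signal + 32) axis for 10 genes on the 5 F arrays (left, circles) and the 7 CLP arrays (right, squares, arrays 1 to 7 from left to right); bars are group means. Jchain, Egr1 and Fos spread over a wide range within CLP, while the F arrays stay close together for Egr1 and Fos.

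Of the 34945 probe sets, 7032 were higher in F (20.1%) and 7473 were lower (21.4%). Per gene, 3381 of 18193 rose in F (18.6%) and 4423 fell (24.3%). The counts of each gene list below are to be read beside these shares, and a list near them is not set apart from other genes. Among the 9678 genes whose mean lay above the array medians, 2164 rose (22.4%) and 3712 fell (38.4%), so the calls among well measured genes leaned to the CLP side. The lean was also seen in size: 1026 called genes were at least 2-fold higher in F on the log2(signal + 32) scale and 2169 at least 2-fold lower. Over all genes the lean depended on how the arrays were scaled. Median centring gave 4119 genes higher and 3927 lower, and quantile normalization 3407 higher and 4170 lower. The 5 F arrays and the 7 CLP arrays did not overlap for 4610 genes (25.3%), and all F arrays lay above for 1827 of them and below for 2783. Of the 7804 called genes, 506 had another probe set called in the opposite direction, and this is said where such a gene is described. With all 41 arrays in one fit, the calls of Bcl11a, Cd79a, Crebbp, Ebf1, Foxo1, Gimap7, Hhex, Igk, Lmo2, Ly6d, Mki67, Mxd4, Npm1, Pax5, Rfxap, Smc4, Stat5b and Tcf3, all described below, were lost (adjusted p = 0.0747 to 0.353). With all probe sets of a gene averaged, those of Atp5a1, Ebf1, Gimap7, Igk, Mxd4, Ncl, Orc1, Ptpn11, Rfxap, Rps6, Smc4 and Tcf3 were lost (adjusted p = 0.0782 to 0.895).

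**Figure D2:**
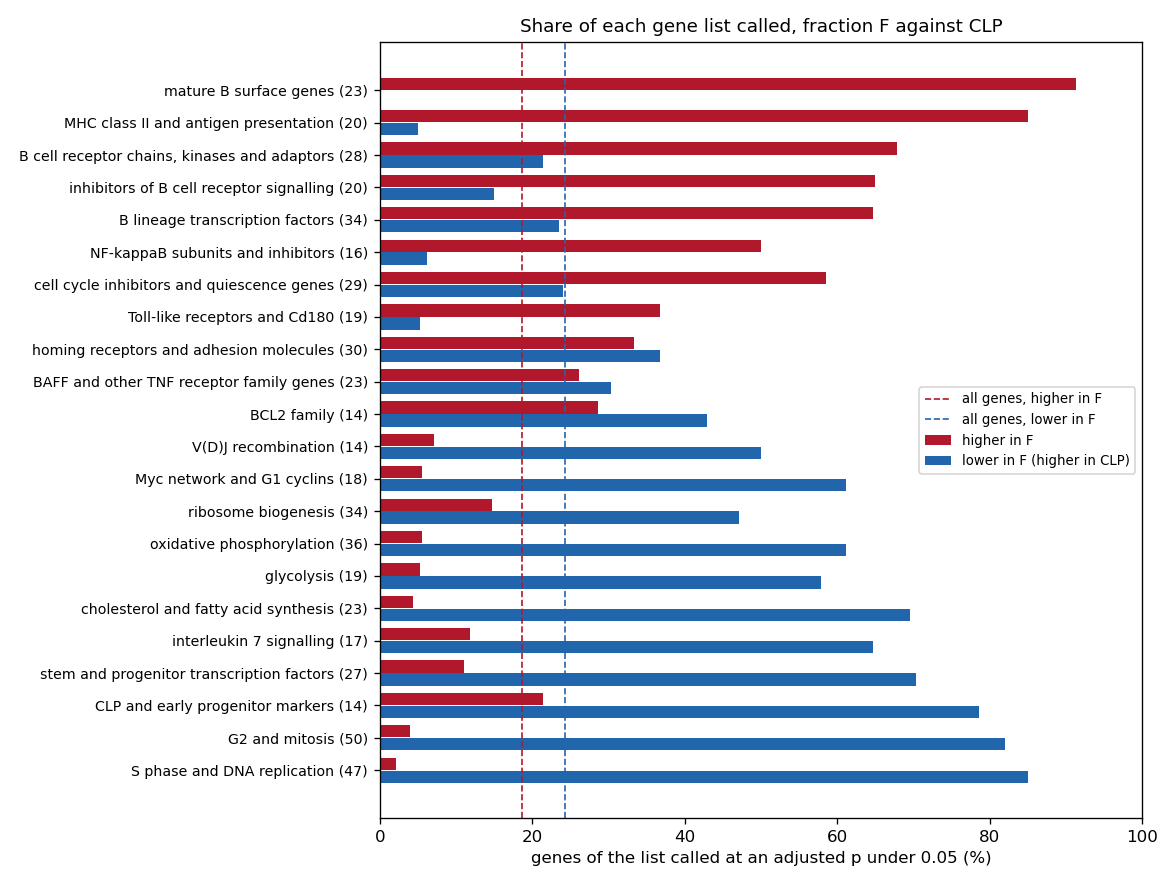
Share of the genes of each list (number on the array in brackets) called higher in F (red) or lower in F (blue), in percent; the dashed lines mark the shares over all 18193 genes, 18.6% higher and 24.3% lower. Surface genes of mature B cells and MHC class II genes stand at the top with most members higher in F, and the S phase and mitosis lists at the bottom with most members lower.

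Ms4a1, which encodes the B cell surface protein CD20, had the largest positive difference. Its signals were 20209, 19921, 22138, 21348 and 22249 on the F arrays, against a lowest of 19.8, a median of 68.7 and a highest of 294 on the CLP arrays. The groups were far apart, although CLP arrays 6 and 7 gave 294 and 269.9 and the other CLP arrays at most 72.8, and the log2 difference was 7.55 (SE 0.43, adjusted p = 8.7e-09). Fcmr, the receptor for secreted IgM, gave 3547, 5547, 4072, 3344 and 4792 on the F arrays, against a lowest of 20.8, a median of 28.2 and a highest of 129 on the CLP arrays. Cd22, a sialic acid binding receptor that restrains antigen receptor signals, gave 6113, 6039.6, 6241, 6096 and 5541 on the F arrays, against a lowest of 57.8, a median of 89.8 and a highest of 224 on the CLP arrays. For both genes every F array exceeded every CLP array, with differences of 5.83 (SE 0.27, adjusted p = 2.75e-12) for Fcmr and 5.44 (SE 0.22, adjusted p = 3.45e-13) for Cd22.

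The other genes with the largest increases included further B cell surface genes and several genes with no established B cell role. Cd83, a membrane protein that stabilises MHC class II, rose by 4.95 on the log2 scale, and Cd55, which protects cells from complement, by 4.86. Fcrla, an intracellular Fc receptor-like protein of B cells, rose by 4.83, and Bank1, a scaffold of antigen receptor signalling, by 4.68. Marchf1, the ubiquitin ligase that sends MHC class II for degradation, rose by 4.65, and Pgap1, which remodels glycolipid anchors of surface proteins, by 4.62. Srpk3, a kinase known from muscle, rose by 5.21, and Angptl1, a secreted angiopoietin-like protein, by 5.01. The unnamed transcripts 4930426D05Rik and Gm8369 rose by 5.81 and 5.21. All of these genes had an adjusted p of 2.45e-10 or below, and none overlapped between F and CLP.

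Cr2, the complement receptor that lowers the threshold of the antigen receptor, gave 1879, 2019, 2419, 2085 and 1962 on the F arrays, against a lowest of 68.5, a median of 77.0 and a highest of 119.7 on the CLP arrays. Fcer2a, the low-affinity IgE receptor of follicular B cells, gave 908, 1049, 1195, 367 and 993 on the F arrays, against a lowest of 46.4, a median of 54.1 and a highest of 103 on the CLP arrays. Both rose without overlap, Cr2 by 4.14 (SE 0.17, adjusted p = 5.05e-13) and Fcer2a by 3.23 (SE 0.25, adjusted p = 3.82e-09), although F array 4 was well below the other F arrays for Fcer2a. Of the remaining surface genes, Pecam1, an adhesion molecule, differed by 0.16 (adjusted p = 0.367) and was not called. Ly6d, which marks B-biased progenitors as well as B cells, rose by 0.51 (adjusted p = 0.0041) with overlapping arrays, and this call was lost with CLP arrays 1 to 3 alone (0.40, adjusted p = 0.0786).

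**Figure D3:**
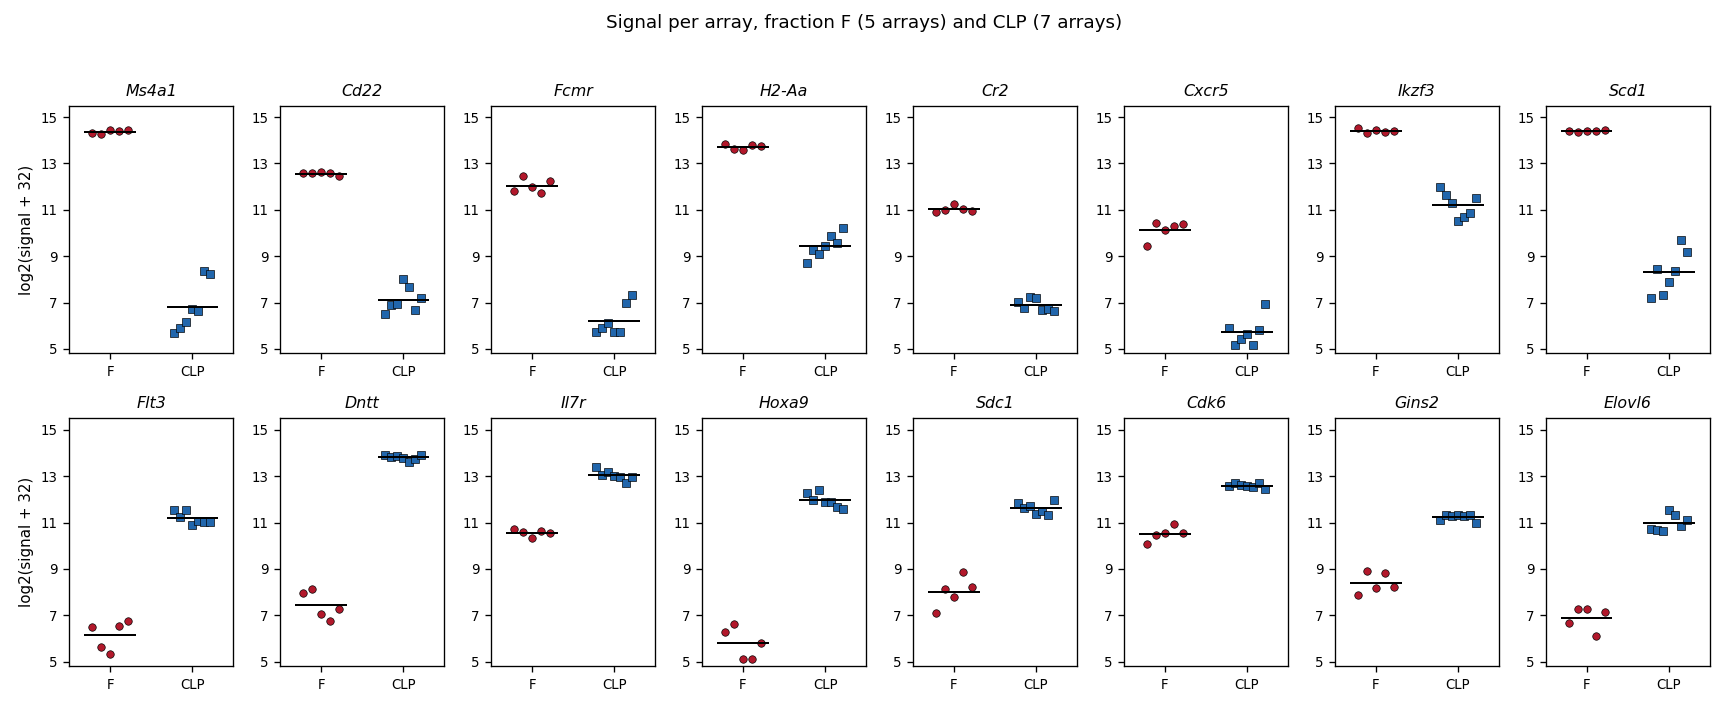
Signal on a log2(signal + 32) axis for 16 genes on the 5 F arrays (left, circles) and the 7 CLP arrays (right, squares), with group means as bars. The F arrays lie above all CLP arrays for Ms4a1, Cd22, Fcmr, H2-Aa, Cr2, Cxcr5, Ikzf3 and Scd1, and below them for Flt3, Dntt, Il7r, Hoxa9, Sdc1, Cdk6, Gins2 and Elovl6.

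On the CLP side, Jchain and Dntt had the largest differences. Dntt, terminal deoxynucleotidyl transferase, adds untemplated bases when immunoglobulin genes join, and gave 215, 253, 103, 76.2 and 122 on the F arrays, against a lowest of 12461, a median of 14756 and a highest of 15633 on the CLP arrays. The log2 difference was -6.38 (SE 0.18, adjusted p = 4.03e-15), with a narrow range on either side. Jchain gave 12.9, 2.5, 34.5, 23.0 and 83.3 on the F arrays, against a lowest of 1053, a median of 6636 and a highest of 18936 on the CLP arrays, so all F arrays lay below the CLP arrays although these spread widely. Its difference was -6.44 (SE 0.75, adjusted p = 3.9e-05). It was -4.86 (adjusted p = 3.11e-07) with CLP arrays 1 to 3 alone and -7.62 (adjusted p = 1.5e-10) with arrays 4 to 7 alone.

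The other large decreases included genes of stem and progenitor cells and of T cells. Hoxa9, a homeobox factor of haematopoietic progenitors, gave 45.4, 67.9, 2.4, 2.9 and 24.1 on the F arrays, against a lowest of 3062, a median of 3785 and a highest of 5401 on the CLP arrays. That is a difference of -6.17 (SE 0.24, adjusted p = 2.69e-13) with no overlap. Erg, an ETS factor of stem cells, differed by -5.22, and Cd34, a surface sialomucin of progenitors, by -5.02 on the log2 scale. Thy1, a glycoprotein of T cells and early progenitors, differed by -5.21, and Icos, a costimulatory receptor of T cells, by -5.21. Adgrg3 (an adhesion G protein-coupled receptor), Gfra2 (a receptor for the neurotrophic factor neurturin), Ramp1 (a subunit of the receptor for the neuropeptide CGRP) and S100a4 (a calcium-binding protein) differed by -6.27, -5.92, -5.46 and -5.23 in that order. Myl10, a myosin light chain, differed by -5.59, Emb, a membrane partner of a lactate transporter, by -5.14, and Gm2629, an unnamed transcript, by -5.20. Erg averaged 158 on the F arrays and the others 13.3 to 84.9, and at such low signals the pseudocount of 32 limits the size of a difference.

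Most transcription factors of stem and progenitor cells fell. Of 27 on the array, 19 fell and 3 rose, with a median log2 difference of -1.45. Beside Hoxa9 and Erg, Gata3, a factor of T cell and innate lymphoid fate, averaged 6.66 ± 2.53 on the F arrays and 346 ± 131 on the CLP arrays (SD), and differed by -3.22 (adjusted p = 3.09e-09). Cebpa, the myeloid fate factor, averaged 5.08 ± 1.29 on the F arrays and 278 ± 206 on the CLP arrays and differed by -2.84 (adjusted p = 9.84e-07). Ikzf2 (Helios) differed by -3.20 (adjusted p = 2.27e-08), Etv6, an ETS repressor, by -2.85 (adjusted p = 2.89e-11), and Mycn by -2.39 (adjusted p = 1.59e-05). The 3 that rose were Lmo2 (0.63), Bcl11a (0.54) and Hhex (0.35), which also act in B cells, and these 3 calls were lost with all 41 arrays in one fit (adjusted p = 0.166 for Lmo2, 0.0989 for Bcl11a and 0.245 for Hhex).

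Of 34 transcription factors of the B lineage, 22 rose and 8 fell, with a median of 0.69. With all 41 arrays in one fit 14 rose and 6 fell. Zfp318, a factor needed for IgD splicing in mature B cells, gave 6831, 5893, 5417, 4733 and 5486 on the F arrays, against a lowest of 381, a median of 421 and a highest of 519.6 on the CLP arrays. Ikzf3 (Aiolos), an Ikaros family factor, gave 23829, 20367, 21922, 20979 and 21363 on the F arrays, against a lowest of 1449.6, a median of 2453 and a highest of 4074 on the CLP arrays. Both were separated by a wide gap, with differences of 3.62 (SE 0.12, adjusted p = 5.16e-14) for Zfp318 and 3.19 (SE 0.21, adjusted p = 9.94e-09) for Ikzf3. Spib, an ETS factor of B cells, rose by 2.80 (adjusted p = 1.29e-11), Bcl6, the germinal centre repressor, by 2.71 (adjusted p = 7.85e-10), and Irf4, which acts in light chain rearrangement and plasma cells, by 2.66 (adjusted p = 1.15e-07).

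Ebf1 and Pax5, which specify the B lineage, overlapped between F and CLP. Ebf1, which opens B cell genes in progenitors, gave 5949, 5021, 4702, 4845 and 5031 on the F arrays, against a lowest of 2465, a median of 3691 and a highest of 4860.3 on the CLP arrays. Pax5 gave 1939, 2405, 2185, 1819 and 1559 on the F arrays, against a lowest of 695, a median of 1220.3 and a highest of 2096 on the CLP arrays. The groups overlapped for both, and the differences were 0.50 (SE 0.14, adjusted p = 0.00837) for Ebf1 and 0.74 (SE 0.21, adjusted p = 0.00665) for Pax5. The Ebf1 call was lost with all 41 arrays in one fit (adjusted p = 0.181) and with its probe sets averaged (0.35, adjusted p = 0.0998). Pax5 differed by 1.11 (adjusted p = 0.00045) with CLP arrays 1 to 3 alone and by 0.46 (adjusted p = 0.0632) with arrays 4 to 7 alone. Among those that fell, Id2, an inhibitor of E proteins, differed by -1.96 (adjusted p = 2.95e-06), Irf8 by -0.79 (adjusted p = 3.63e-06) and Ikzf1 (Ikaros) by -0.38 (adjusted p = 0.000329). Tcf3, the gene of the E2A proteins, differed by -0.73 (adjusted p = 0.0132), but another of its probe sets was called higher, and with CLP arrays 1 to 3 alone it was at -0.20 (adjusted p = 0.475) and with a replicate block at -0.54 (adjusted p = 0.0668).

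Of 14 V(D)J recombination genes, 7 fell and 1 rose. With all 41 arrays in one fit, and with CLP arrays 1 to 3 alone, 4 fell. Rag1, which with Rag2 cuts the immunoglobulin loci, gave 2149, 2632, 3029.5, 3078 and 2316 on the F arrays, against a lowest of 4491, a median of 5210.4 and a highest of 6837 on the CLP arrays, and its arrays did not overlap. The difference was -0.99 (SE 0.11, adjusted p = 6.21e-07), and that of Rag2 was -3.32 (SE 0.22, adjusted p = 4.27e-10) with mean signals of 204 ± 77.1 on the F arrays and 2323 ± 768 on the CLP arrays. Xrcc6, the Ku70 subunit that holds broken ends, differed by -1.49 (adjusted p = 2.54e-10). Polm, a polymerase of end joining, was the member that rose (2.72, adjusted p = 1.09e-08).

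The surrogate light chain gene Vpreb1 gave 1097, 903, 857, 471 and 462 on the F arrays, against a lowest of 12031, a median of 12645 and a highest of 14193 on the CLP arrays. It was lower on every F array, with a difference of -4.10 (SE 0.16, adjusted p = 3.45e-13). Igll1, the other surrogate light chain gene, depended on the probe set. The brighter one by mean over the 12 arrays gave 1702, 1634, 1763, 2040.1 and 1890.1 on the F arrays, against a lowest of 671, a median of 1829 and a highest of 3874 on the CLP arrays, with overlap and a difference of -0.06 (adjusted p = 0.91). The other averaged 176 in F and 8405 in CLP, with a difference of -5.45 (adjusted p = 5.33e-13). Of the 11 genes of the checkpoint list, 5 rose and 2 fell, and those that rose were Cd2, Cd79b, Syk, Blk and Cd79a, which mature B cells also use.

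Of 5 immunoglobulin genes on the array, 1 was called higher (20.0%) and 1 lower (20.0%) in F. All F arrays lay above all CLP arrays for 2 of them and below for 1, which was Jchain. Igk, the kappa light chain locus, gave 25031, 25399, 27294, 26524 and 28514 on the F arrays, against a lowest of 6412, a median of 13861 and a highest of 24072 on the CLP arrays. The arrays did not overlap for Igk, and its difference was 0.97 (SE 0.31, adjusted p = 0.0276). The call was lost without F array 3, 4 or 5 (0.94 to 0.97, adjusted p = 0.0506 to 0.0553) and under quantile normalization (0.37, adjusted p = 0.44). Ighm, the mu heavy chain, gave 7738, 6124, 7464, 6851 and 6099 on the F arrays, against a lowest of 2819, a median of 7192 and a highest of 13089 on the CLP arrays, with overlap and a difference of 0.14 (adjusted p = 0.78). Of its 11 probe sets, 2 were called higher and 6 lower in F. The 6 lower ones averaged at most 127.2 in F and between 4932 and 8225 in CLP, where single arrays ran as low as 6.1 and as high as 18962. With CLP arrays 1 to 3 alone the difference of Ighm was 0.92 (adjusted p = 7.74e-05), and with arrays 4 to 7 alone -0.44 (adjusted p = 0.0219). Ighd and Igkc were not analysed here.

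Most antigen receptor signalling genes rose, on both the activating and the inhibitory side. Of 28 receptor chains, kinases and adaptors, 19 rose and 6 fell, with a median of 0.93. Of 20 inhibitors, 13 rose and 3 fell, with the same median of 0.93. Syk, the kinase that the receptor recruits, gave 7960.0, 8230.4, 6909, 7374 and 8616 on the F arrays, against a lowest of 926, a median of 1587 and a highest of 1874 on the CLP arrays, with a difference of 2.37 (SE 0.13, adjusted p = 3.76e-11) and no overlap. The signalling chain Cd79b rose by 2.42 (adjusted p = 2.69e-10) and its partner Cd79a by 0.95 (adjusted p = 4.63e-05). Rasgrp3, which activates Ras downstream of the receptor, rose by 3.54 (adjusted p = 0.000112), Malt1, a protease of the NF-kappaB branch, by 2.60 (adjusted p = 1.03e-08), and Prkcb, the protein kinase C isoform of that branch, by 2.00 (adjusted p = 4.8e-10).

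Among the activating genes that fell, Fyn, a Src family kinase of T cells, differed by -1.96 (adjusted p = 1.05e-09) and Vav3, a guanine nucleotide exchange factor, by -1.80 (adjusted p = 9.78e-09). Blnk, the adaptor that links Syk to phospholipase C, missed the threshold at -0.37 (adjusted p = 0.0535), and was called lower when CLP array 1 (-0.46, adjusted p = 0.0111) or 3 (-0.46, adjusted p = 0.0133) was left out. On the inhibitory side, beside Cd22, Btla, a receptor of the B and T lymphocyte attenuator pathway, averaged 19206 ± 809.9 on the F arrays and 1420.1 ± 424 on the CLP arrays and rose by 3.80 (adjusted p = 2.89e-11). Siglecg rose by 2.48 (adjusted p = 1.22e-08), Fcgr2b, the inhibitory Fc receptor, by 2.49 (adjusted p = 3.73e-08), and the phosphatase Ptpn6 (SHP-1) by 2.06 (adjusted p = 3.78e-11). Lair1, a collagen receptor, differed by -3.55 (adjusted p = 1.75e-10), and Inpp5d, the lipid phosphatase SHIP-1, by -0.60 (adjusted p = 0.000578).

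Most MHC class II genes rose. Of 20 genes of class II presentation, 17 rose and 1 fell, with a median log2 difference of 1.80. Promoter sequences of 4 called class II genes are printed here because the genes move together and lie on 1 chromosome, and because a CCAAT box is a known element of class II promoters. The windows are the 150 bases before the gene start in RefSeq's GRCm38.p6, 5′ to 3′ on the gene's strand, and capitals mark CCAAT or its reverse complement ATTGG.
H2-Aa, chr17:34287824-34287973, minus strand: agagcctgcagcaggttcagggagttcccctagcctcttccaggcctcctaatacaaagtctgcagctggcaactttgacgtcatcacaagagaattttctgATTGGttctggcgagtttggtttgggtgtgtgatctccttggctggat
H2-Eb1, chr17:34305717-34305866, plus strand: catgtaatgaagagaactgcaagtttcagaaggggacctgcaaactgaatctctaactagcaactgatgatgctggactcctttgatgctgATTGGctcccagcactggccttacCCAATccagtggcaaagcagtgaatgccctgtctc
H2-DMb2, chr17:34145099-34145248, plus strand: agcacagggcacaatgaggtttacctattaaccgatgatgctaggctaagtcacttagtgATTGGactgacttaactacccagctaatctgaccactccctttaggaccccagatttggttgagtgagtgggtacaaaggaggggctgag
H2-Ob, chr17:34238755-34238904, plus strand: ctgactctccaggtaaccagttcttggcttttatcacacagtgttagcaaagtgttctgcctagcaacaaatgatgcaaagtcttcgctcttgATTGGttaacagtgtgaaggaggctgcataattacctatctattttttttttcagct
The match begins 48 bases before the start of H2-Aa, 90 before that of H2-DMb2 and 57 before that of H2-Ob, and H2-Eb1 has matches at 59 and 35 bases. In windows of 250 bases before to 50 after the start, CCAAT on either strand occurred in 11 of the 14 class II list genes with a promoter sequence (78.6%), in 6070 of 14452 genes with a probe set and a promoter sequence (42.0%) and in 37.4% of all 32851 windows of that length. The 4 genes were picked from called members with a match after their values were seen, and a match is a description of letters only.

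H2-Aa, the alpha chain of I-A, gave 14628, 12412, 12067, 14377 and 13727 on the F arrays, against a lowest of 385, a median of 671 and a highest of 1142 on the CLP arrays. Ciita, the coactivator that class II genes require, gave 533, 429, 558, 509 and 505 on the F arrays, against a lowest of 16.9, a median of 35.3 and a highest of 82.0 on the CLP arrays. Both were higher on every F array, with differences of 4.27 (SE 0.18, adjusted p = 9.57e-13) for H2-Aa and 2.96 (SE 0.23, adjusted p = 2.8e-09) for Ciita. Cd74, the invariant chain that guards the class II groove, gave 14495, 12481, 13450.3, 15203 and 12748 on the F arrays, against a lowest of 413, a median of 727 and a highest of 2957 on the CLP arrays, where the highest was CLP array 7. It rose by 3.91 (SE 0.41, adjusted p = 1.13e-05), still with no overlap.

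Most other chains and accessory genes rose, with a range of sizes. H2-Ab1, the beta chain of I-A, rose by 2.26 and H2-Eb1, the beta chain of I-E, by 2.91 on the log2 scale. H2-DMb2, a chain of the peptide exchange factor DM, rose by 3.77. H2-Oa and H2-Ob, which form the inhibitor of DM, rose by 1.66 and 1.71, and Ifi30, a thiol reductase of the antigen processing compartment, by 3.29. H2-DMa, the other DM chain, differed by -0.05 (adjusted p = 0.876) and was not called. Rfxap, a subunit of the factor that binds class II promoters, was the member that fell (-0.77, adjusted p = 0.000995), and this call was lost with CLP arrays 1 to 3 alone (-0.58, adjusted p = 0.0766).

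Of 23 TNF receptor family genes, 6 rose (26.1%) and 7 fell (30.4%), against 18.6% and 24.3% of all genes. Cd40, the receptor for T cell help, gave 4578, 5292, 5199, 5051 and 4667 on the F arrays, against a lowest of 26.2, a median of 237 and a highest of 475 on the CLP arrays. Tnfrsf13c, the BAFF receptor that mature B cells need to survive, gave 23526, 23006, 23420.4, 22938 and 23534 on the F arrays, against a lowest of 3265, a median of 3651 and a highest of 4908 on the CLP arrays. No arrays overlapped, and the differences were 4.38 (SE 0.40, adjusted p = 4.85e-07) for Cd40 and 2.57 (SE 0.09, adjusted p = 5.16e-14) for Tnfrsf13c. Traf5, an adaptor of these receptors, rose by 2.66 (adjusted p = 5.98e-12) and Tnfrsf13b (TACI) by 1.07 (adjusted p = 3.83e-05). Tnfrsf21 differed by -3.47 (adjusted p = 1.22e-09), Cd27 by -3.12 (adjusted p = 5.96e-09) and Tnfrsf1a, a receptor for TNF, by -2.55 (adjusted p = 5.84e-08).

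Of 16 NF-kappaB genes, 8 rose and 1 fell, with a median of 0.62. Rel, the c-Rel subunit of mature lymphocytes, rose by 2.30 (adjusted p = 1.57e-10), and the inhibitors Nfkbia and Nfkbie by 1.25 (adjusted p = 2.08e-09) and 1.40 (adjusted p = 5.77e-08). Ikbke, a kinase of the interferon pathway, was the member that fell (-1.26, adjusted p = 4.77e-05). Of 19 Toll-like receptor genes, 7 rose and 1 fell. Tlr1 rose by 3.77 (adjusted p = 3.06e-09), and Cd180 and Ly86, which form a Toll-like receptor complex of B cells, by 1.78 (adjusted p = 3.33e-08) and 1.33 (adjusted p = 1.03e-08). Irak1, a kinase downstream of the receptors, differed by -0.57 (adjusted p = 0.00402).

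Of 30 homing receptor and adhesion genes on the array, 10 rose (33.3%) and 11 fell (36.7%), against 18.6% and 24.3% of all genes, with a median of 0.01. Of the 30, 26 had means above the array medians, and of all such genes 22.4% rose and 38.4% fell. Cxcr5, the receptor that guides B cells into follicles, gave 669.6, 1361, 1083, 1213 and 1327 on the F arrays, against a lowest of 3.9, a median of 17.5 and a highest of 91.3 on the CLP arrays. S1pr1, the sphingosine phosphate receptor for exit into blood and lymph, gave 2283, 2669, 2688, 2463 and 2808 on the F arrays, against a lowest of 232, a median of 338 and a highest of 536 on the CLP arrays. Neither gene had overlapping arrays, and the differences were 4.42 (SE 0.29, adjusted p = 2.74e-10) for Cxcr5 and 2.85 (SE 0.17, adjusted p = 7.42e-11) for S1pr1. Ccr6 rose by 2.74 (adjusted p = 3.55e-06), Ccr7, the receptor for entry into lymph nodes, by 1.83 (adjusted p = 2.02e-08), and Gpr183, an oxysterol receptor that positions B cells, by 1.27 (adjusted p = 9.17e-05). Ccr2, the monocyte receptor, differed by -4.32 (adjusted p = 5.12e-05), Ccr9, a thymus and gut homing receptor, by -2.65 (adjusted p = 8.49e-07), and Selplg, the selectin ligand PSGL-1, by -2.59 (adjusted p = 9.92e-12).

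Most interleukin 7 pathway genes fell, as did the receptor. Of 17 genes, 11 fell and 2 rose, with a median of -0.74. Socs2 and Cish, feedback inhibitors that Stat5 induces, averaged 40.8 ± 17.2 on the F arrays and 653 ± 365 on the CLP arrays for Socs2 and 44.9 ± 43.9 on the F arrays and 370.4 ± 263 on the CLP arrays for Cish. Their differences were -3.13 (adjusted p = 2.2e-08) for Socs2 and -2.36 (adjusted p = 5.71e-05) for Cish. Stat5b differed by -0.78 (adjusted p = 0.000447) and Ccnd3, the D-type cyclin of dividing B cell precursors, by -2.84 (adjusted p = 1.95e-10), although another Ccnd3 probe set was called higher. Jak1 rose by 0.88 (adjusted p = 3.98e-06). Mcl1, a survival protein, gave 24763, 24495, 24095, 24060.3 and 25545 on the F arrays, against a lowest of 7780.2, a median of 8316 and a highest of 9361 on the CLP arrays, which is a rise of 1.54 (SE 0.06, adjusted p = 1.83e-13) without overlap.

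Most DNA replication genes were lower in F. Of 47 S phase genes, 40 fell and 1 rose, with a median log2 difference of -1.03. Gins2, a subunit of the replicative helicase, gave 200.3, 449, 262, 421 and 271 on the F arrays, against a lowest of 2019, a median of 2486 and a highest of 2567 on the CLP arrays. It fell on every F array, with a difference of -2.83 (SE 0.17, adjusted p = 6.47e-11). Uhrf1, which carries DNA methylation through replication, averaged 1867 ± 552 on the F arrays and 7113 ± 695 on the CLP arrays and differed by -1.96 (adjusted p = 1.9e-09). Lig1, the ligase of the lagging strand, differed by -1.88 (adjusted p = 3.45e-10), and Tk1, thymidine kinase, by -1.95 (adjusted p = 2.06e-07). Orc1, a subunit of the origin recognition complex, was the member that rose (1.07, adjusted p = 0.00036), but its other probe set was called lower.

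Mitotic genes followed, with 41 of 50 lower, 2 higher and a median of -1.09. Promoters of 4 called members are printed because the list moves together and because the cell cycle genes homology region (CHR), an element of late cell cycle promoters, has the letters TTTGAA. The windows are again the 150 bases before the start in RefSeq's GRCm38.p6, with TTTGAA or its reverse complement TTCAAA in capitals.
Cdk1, chr10:69352913-69353062, minus strand: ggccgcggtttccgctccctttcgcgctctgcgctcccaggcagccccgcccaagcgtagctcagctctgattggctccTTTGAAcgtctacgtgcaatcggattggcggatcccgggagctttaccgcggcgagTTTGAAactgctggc
Espl1, chr15:102296143-102296292, plus strand: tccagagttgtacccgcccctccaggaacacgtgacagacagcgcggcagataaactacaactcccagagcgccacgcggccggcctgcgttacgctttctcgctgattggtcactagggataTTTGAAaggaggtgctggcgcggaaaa
Ckap2l, chr2:129297213-129297362, minus strand: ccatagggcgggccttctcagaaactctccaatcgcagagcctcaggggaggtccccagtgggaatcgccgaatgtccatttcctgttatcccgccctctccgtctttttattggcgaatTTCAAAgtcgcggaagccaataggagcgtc
Ube2c, chr2:164769779-164769928, plus strand: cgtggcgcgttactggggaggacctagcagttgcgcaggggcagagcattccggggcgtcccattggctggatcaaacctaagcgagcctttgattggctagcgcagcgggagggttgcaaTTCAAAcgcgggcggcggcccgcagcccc
The match begins 71 and 15 bases before the start of Cdk1, 27 before that of Espl1, 30 before that of Ckap2l and 29 before that of Ube2c. In windows of 250 bases before to 50 after the start, TTTGAA on either strand occurred in 32 of 42 mitosis genes with a promoter sequence (76.2%), in 1 of the 14 class II genes (7.14%), in 15.7% of the 14452 genes and in 17.9% of all windows. CCAAT occurred in the promoters of 32 of the 42 mitosis genes (76.2%). These 4 genes too were picked after their values were seen.

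Cdk1, the kinase that drives entry into mitosis, gave 438, 744, 528, 433 and 698 on the F arrays, against a lowest of 885, a median of 2141 and a highest of 2784 on the CLP arrays. The groups did not overlap, and the difference was -1.66 (SE 0.25, adjusted p = 2.11e-05). Espl1 (separase) averaged 306 ± 155 on the F arrays and 1273 ± 329.6 on the CLP arrays, and Ckap2l, a spindle protein, 387 ± 153 on the F arrays and 1647 ± 504 on the CLP arrays, with differences of -2.0 (adjusted p = 4.7e-07) for Espl1 and -2.01 (adjusted p = 7.88e-07) for Ckap2l. Bub1b, a spindle checkpoint kinase, differed by -2.49 (adjusted p = 2.47e-06) and Aurka, the centrosome kinase, by -2.08 (adjusted p = 7.94e-07). Ube2c, the ubiquitin-conjugating enzyme of mitotic exit, differed by -1.06 (adjusted p = 0.00068), a call that was lost with CLP arrays 1 to 3 alone (-0.50, adjusted p = 0.0749).

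Mki67, the proliferation antigen Ki-67, did not follow the list. It gave 13055, 18047, 15898, 17787 and 17416 on the F arrays, against a lowest of 12243, a median of 13718 and a highest of 15461 on the CLP arrays. The groups overlapped, the difference was 0.27 (SE 0.08, adjusted p = 0.00976), and under quantile normalization it was -0.20 (adjusted p = 0.0375). The Mki67 call was also lost with CLP arrays 4 to 7 alone (0.21, adjusted p = 0.0849). Smc4, a condensin subunit, was the other member called higher (0.26, adjusted p = 0.00524), with 1 of its 3 probe sets called lower and a difference of -0.07 (adjusted p = 0.433) under quantile normalization. The count of lower mitosis genes was 28 with CLP arrays 1 to 3 alone and 43 with arrays 4 to 7 alone, and that of lower S phase genes 34 and 39.

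Most genes that drive G1 fell and most genes of quiescence rose in the fit of the 12 arrays. Of 18 genes of the Myc network and G1, 11 fell and 1 rose, and with all 41 arrays in one fit 9 fell and 0 rose. Cdk6, the G1 kinase of lymphoid progenitors, gave 1052, 1365, 1463, 1932 and 1492 on the F arrays, against a lowest of 5498, a median of 6158 and a highest of 6593 on the CLP arrays, with a difference of -2.08 (SE 0.11, adjusted p = 2.99e-11). Cdk4 differed by -1.58 (adjusted p = 2.06e-10), Cdk2 by -1.21 (adjusted p = 1.11e-06) and Myc by -0.75 (adjusted p = 1.49e-05). The member that rose was Mxd4, a Myc antagonist (0.48, adjusted p = 0.00587), with another probe set called lower and the call lost with CLP arrays 1 to 3 alone.

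Of 29 cell cycle inhibitors and quiescence genes, 17 rose and 7 fell, with a median of 0.52. With all 41 arrays in one fit 13 rose and 4 fell. Btg1, an antiproliferative factor, gave 16688, 17765, 19578, 19076 and 20129 on the F arrays, against a lowest of 3865, a median of 4590.2 and a highest of 5234 on the CLP arrays. Klf2, a factor that keeps lymphocytes quiescent, gave 2259, 3257, 3739, 3959.8 and 3751 on the F arrays, against a lowest of 247, a median of 501 and a highest of 3637 on the CLP arrays. Btg1 rose without overlap by 2.04 (SE 0.08, adjusted p = 3.45e-13), while Klf2 overlapped at CLP array 7 alone and rose by 2.17 (SE 0.65, adjusted p = 0.0198). With CLP arrays 1 to 3 alone Klf2 differed by 3.31 (adjusted p = 4.86e-08), and with arrays 4 to 7 alone by 1.32 (adjusted p = 0.0942). Slfn2, needed for lymphocyte quiescence, rose by 2.62 (adjusted p = 6.37e-10) and Tob1, another antiproliferative factor, by 1.44 (adjusted p = 3.33e-05). Cdkn1a (p21) went the other way and differed by -3.38 (adjusted p = 3.23e-07).

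**Figure D4:**
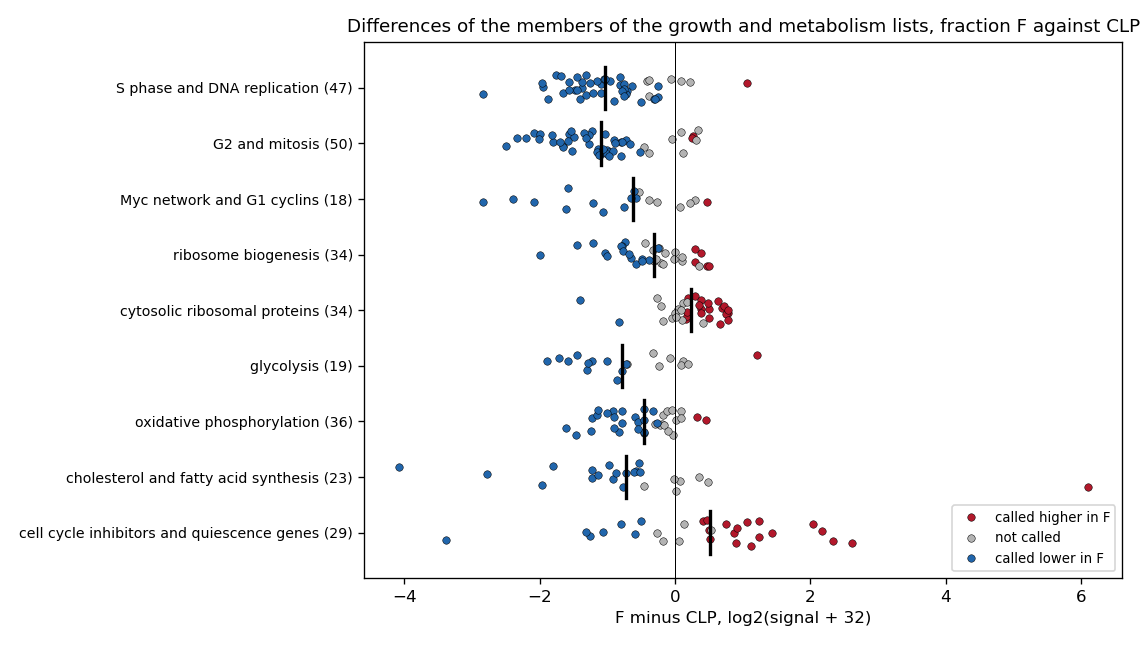
Difference F minus CLP on the log2(signal + 32) scale for every gene of 9 growth, metabolism and quiescence lists (number on the array in brackets); each point is a gene, red called higher in F, blue called lower and grey not called, and black bars are list medians. The medians of the S phase and mitosis lists lie near -1, that of the quiescence list is positive, and Scd1 stands alone at 6.10 in the lipid list.

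Of 34 ribosome biogenesis genes, 16 fell (47.1%) and 5 rose (14.7%), with a median of -0.31, against 24.3% and 18.6% of all genes. All 34 had means above the array medians, and of all such genes 38.4% fell and 22.4% rose. With all 41 arrays in one fit 10 fell and 1 rose. Nolc1, a nucleolar chaperone, differed by -1.99 (adjusted p = 2.34e-10) and Fbl, the nucleolar methyltransferase fibrillarin, by -1.21 (adjusted p = 8.86e-08). Npm1 (nucleophosmin) was called higher at 0.39 (adjusted p = 8.6e-06), but was at -0.29 (adjusted p = 0.00104) under quantile normalization, and Ncl (nucleolin), called higher at 0.48 (adjusted p = 3.92e-05), had 2 of 5 probe sets called lower. Of 34 ribosomal proteins, 20 rose and 2 fell with a median of 0.24, whereas under quantile normalization 2 rose and 14 fell with a median of -0.12, so no direction is given for this list. Rpl14 differed by -1.40 (adjusted p = 6.28e-09), and Rps28 rose by 0.79 (adjusted p = 2.19e-09) and by 0.18 (adjusted p = 0.00383) under quantile normalization.

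Most energy metabolism genes fell in the fit of the 12 arrays. Of 19 glycolysis genes, 11 fell and 1 rose, with a median of -0.78. Pkm, pyruvate kinase, averaged 899 ± 163 on the F arrays and 3419 ± 493 on the CLP arrays and differed by -1.89 (adjusted p = 4.71e-10), and Tpi1, triosephosphate isomerase, differed by -1.45 (adjusted p = 4.76e-09). Slc2a1, the glucose transporter GLUT1, was the member that rose (1.22, adjusted p = 4.85e-07). Of 36 oxidative phosphorylation genes, 22 fell (61.1%) and 2 rose (5.56%), with a median of -0.45. All 36 had means above the array medians, and 38.4% of all such genes fell. With all 41 arrays in one fit, and with CLP arrays 1 to 3 alone, 15 of the 36 fell. Sdhc, a subunit of succinate dehydrogenase, differed by -1.61 (adjusted p = 1.53e-08), Cyc1, cytochrome c1, by -1.46 (adjusted p = 4.29e-08), and Atp5b, the beta subunit of ATP synthase, by -1.24 (adjusted p = 4.09e-09).

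Most lipid synthesis genes fell, and 1 rose by a large amount. Of 23 genes of cholesterol and fatty acid synthesis, 16 fell and 1 rose, with a median of -0.73. The exception was Scd1, the desaturase that makes monounsaturated fatty acids, with 21837, 20652, 21279.7, 21648 and 22366 on the F arrays, against a lowest of 117, a median of 293 and a highest of 797 on the CLP arrays. Elovl6, the elongase one step upstream, gave 69.7, 122, 124, 37.7 and 111 on the F arrays, against a lowest of 1540.4, a median of 1807 and a highest of 2943 on the CLP arrays. The enzymes thus moved apart, Scd1 by 6.10 (SE 0.37, adjusted p = 1.75e-08) and Elovl6 by -4.08 (SE 0.22, adjusted p = 1.74e-11), with no overlap for either. Sqle, squalene epoxidase, differed by -2.78 (adjusted p = 1.1e-08), Fdft1, squalene synthase, by -1.97 (adjusted p = 1.15e-07), and Srebf1, the transcription factor of lipid synthesis, by -1.13 (adjusted p = 8.98e-05).

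Survival genes were mixed. Of 14 BCL2 family genes, 4 rose (28.6%) and 6 fell (42.9%), against 18.6% and 24.3% of all genes. Of the 14, 11 had means above the array medians, and of all such genes 22.4% rose and 38.4% fell. Beside Mcl1, the pro-apoptotic gene Pmaip1 (Noxa) rose by 1.57 (adjusted p = 0.000274). Bok differed by -2.30 (adjusted p = 6.99e-07), Bad by -1.03 (adjusted p = 6.89e-05), Bak1 by -1.0 (adjusted p = 0.000203) and the anti-apoptotic Bcl2l1 by -0.95 (adjusted p = 0.00235), a call that was lost with CLP arrays 1 to 3 alone (-0.63, adjusted p = 0.14). Bcl2 itself gave 7638, 7671, 6423, 6983 and 7395 on the F arrays, against a lowest of 6604, a median of 7547 and a highest of 11762 on the CLP arrays, which overlapped, and its difference was -0.18 (adjusted p = 0.234). Another Bcl2 probe set was called lower at -0.91 (adjusted p = 0.000136), and the 3 others were not called.

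Of 22 PI3K pathway genes, 5 rose (22.7%) and 8 fell (36.4%), with a median of -0.28. These shares lay near those of all genes with a mean above the array medians, 22.4% and 38.4%. Pik3cg, a catalytic subunit, differed by -1.01 (adjusted p = 7.24e-07), and Inpp4b, a lipid phosphatase, by -1.52 (adjusted p = 0.000426). Foxo1, the factor that PI3K signalling restrains and that B cells need for homing and recombination genes, rose by 0.42 (adjusted p = 0.0205), a call that was lost without F array 5 (0.35, adjusted p = 0.0674), with arrays weighted by quality (0.36, adjusted p = 0.0584), with CLP arrays 4 to 7 alone (0.23, adjusted p = 0.155), without trend and robust estimation (adjusted p = 0.0668) and with all 41 arrays in one fit (adjusted p = 0.241).

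Immediate early genes were uneven across the CLP arrays. Of 26 on the array, 12 rose and 5 fell, with a median of 0.83. Their mean log2 level per array ran from 10.12 to 10.59 on the F arrays, against 8.84 to 10.62 on the CLP arrays. Egr3, a factor induced by antigen receptor signals, gave 4769, 4555, 4221, 5252 and 4059 on the F arrays, against a lowest of 26.3, a median of 56.6 and a highest of 379 on the CLP arrays, and rose by 5.29 (SE 0.36, adjusted p = 1.1e-09) without overlap. Egr2 rose by 3.31 (adjusted p = 0.000423), and Ier5 and Jund by 2.14 (adjusted p = 1.39e-09) and 1.48 (adjusted p = 2.19e-05).

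Egr1 gave 4888, 5296, 4908, 5943 and 6199 on the F arrays, against a lowest of 283, a median of 1481 and a highest of 7453 on the CLP arrays. Fos gave 9879.9, 6896, 7177, 9418 and 7949.9 on the F arrays, against a lowest of 314, a median of 1776 and a highest of 8971 on the CLP arrays. Both overlapped at CLP array 7 alone, with CLP array 6 just below the lowest F array. Neither was called, at 2.02 (adjusted p = 0.0629) for Egr1, 2.03 (adjusted p = 0.0592) for Fos and 0.80 (adjusted p = 0.0895) for their partner Jun. Without CLP arrays 6 and 7 the differences were 2.89 (adjusted p = 0.000503) for Egr1, 2.81 (adjusted p = 0.00455) for Fos and 1.19 (adjusted p = 5.25e-05) for Jun, and the list then had 17 members higher and 4 lower. With CLP arrays 4 to 7 alone 9 members were higher and 3 lower, with a median of 0.47, and with arrays 1 to 3 alone 16 were higher and 3 lower, with a median of 1.32. Without F array 1, 9 were higher. Leaving out array 6 alone gave 2.33 (adjusted p = 0.0352) for Egr1 and 2.32 (adjusted p = 0.0356) for Fos, and leaving out array 7 alone 2.44 (adjusted p = 0.0159) and 2.39 (adjusted p = 0.0228). Ier3 and Fosl2, an inducible survival gene and an AP-1 subunit, differed by -2.0 (adjusted p = 3.2e-05) and -1.58 (adjusted p = 3.81e-06).

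Interferon-stimulated genes went both ways, with 7 of 29 higher (24.1%), 12 lower (41.4%) and a median of -0.63, against 18.6% and 24.3% of all genes. Of the 29, 24 had means above the array medians, and the shares over all such genes, 22.4% and 38.4%, lay near those of the list. Oas3, an antiviral synthetase, differed by -2.80 (adjusted p = 7.92e-09) and Iigp1, an interferon-inducible GTPase, by -2.73 (adjusted p = 1.64e-06), while Ddx58, the RNA sensor RIG-I, rose by 1.27 (adjusted p = 4.64e-05). With CLP arrays 1 to 3 alone 2 members were higher and 11 lower. Of 14 heat shock genes, 6 rose (42.9%) and 4 fell (28.6%), against 18.6% and 24.3% of all genes. Hspa8, the constitutive HSP70, rose by 0.88 (adjusted p = 1e-10) and Hsph1, an HSP70 exchange factor, differed by -0.86 (adjusted p = 0.000113), and under quantile normalization the list had 4 higher and 5 lower.

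Notch1 fell and Notch2 rose. Notch1, which drives T cell fate, averaged 483 ± 109 on the F arrays and 2156 ± 276 on the CLP arrays and differed by -2.11 (adjusted p = 1.07e-09). Notch2, which marginal zone B cells require, averaged 9857 ± 1064 on the F arrays and 5771 ± 883 on the CLP arrays and rose by 0.78 (adjusted p = 3.43e-06). Over the 19 genes of the list, 5 rose (26.3%) and 4 fell (21.1%), against 18.6% and 24.3% of all genes. The target Hes1 differed by -0.07 (adjusted p = 0.845). Of 8 Gimap genes, GTPases of lymphocyte survival, 4 rose and 1 fell. Gimap4 gave 4569, 3484, 4456, 2706 and 3319 on the F arrays, against a lowest of 1818, a median of 1984 and a highest of 2560.3 on the CLP arrays, which did not overlap, and rose by 0.82 (SE 0.13, adjusted p = 3.42e-05). Gimap8 rose by 1.31 (adjusted p = 6.71e-06), Gimap6 by 0.66 (adjusted p = 1.95e-06), and Gimap7 differed by -0.60 (adjusted p = 0.00145).

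Of 27 chromatin regulators, 8 rose (29.6%) and 12 fell (44.4%), against 22.4% and 38.4% of all genes with a mean above the array medians. Cbx2, a Polycomb subunit, differed by -2.07 (adjusted p = 1.16e-07), and Dnmt3b, a de novo DNA methyltransferase, by -1.96 (adjusted p = 1.72e-08). Ezh2, the Polycomb methyltransferase of dividing cells, differed by -0.80 (adjusted p = 3.33e-06) and its relative Ezh1 rose by 0.67 (adjusted p = 0.0071), a call that was lost with CLP arrays 1 to 3 alone (0.46, adjusted p = 0.149). According to the submitters, some genes of normal B cell precursors are altered in hypodiploid acute lymphoblastic leukaemia. Of 17 such genes on the array, 4 rose (23.5%) and 9 fell (52.9%), and 15 had means above the array medians. Ikzf3 and Pax5 (above) rose with Rb1, the retinoblastoma gene (1.07, adjusted p = 1.14e-05), and with Crebbp (0.39, adjusted p = 0.000505), for which another probe set was called lower. Flt3, Etv6, Ikzf2 and Vpreb1 fell, as did Maf, a bZIP factor (-1.95, adjusted p = 0.000331), and Ptpn11, the phosphatase SHP-2 (-1.15, adjusted p = 1.54e-07), for which 1 of 3 probe sets was called higher.

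Of 26 genes of the secretory pathway and of plasma cells, 14 fell in F and 4 rose, with a median of -0.64 (-0.34 with CLP arrays 1 to 3 alone). Sdc1, the syndecan of plasma cells and of early B cell precursors, gave 105, 252, 187, 431 and 267 on the F arrays, against a lowest of 2543, a median of 3167 and a highest of 3945 on the CLP arrays, and differed by -3.61 (SE 0.21, adjusted p = 8.41e-11) without overlap. Xbp1, the unfolded protein response factor, differed by -1.74 (adjusted p = 7.8e-06), and Hyou1, a chaperone of the endoplasmic reticulum, by -2.35 (adjusted p = 2.85e-09), while Dnajb9, a co-chaperone, rose by 1.75 (adjusted p = 4.91e-08). Of the 10 plasma cell markers, 3 rose and 3 fell, and their mean log2 level ran from 8.49 to 8.82 on the F arrays, against 8.58 to 10.65 on the CLP arrays. With CLP arrays 1 to 3 alone 4 rose and 3 fell, and with arrays 4 to 7 alone 2 rose and 6 fell. Prdm1, the factor that plasma cells require, averaged 146 ± 31.5 on the F arrays and 172 ± 124 on the CLP arrays and Mzb1, a chaperone of IgM, 1721 ± 101 on the F arrays and 1954 ± 843 on the CLP arrays, and neither was called. The part of plasma cell RNA in the CLP values was not tested.

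Markers of other blood cells were also measured. Of 25 myeloid markers, 11 fell and 2 rose, with a median of -0.72. The median was -0.17 with CLP arrays 1 to 3 alone, where 9 fell, and -1.21 with arrays 4 to 7 alone, where 14 fell. The markers' summed signal ran from 19173 to 31069 on the F arrays, against 26203 to 80807 on the CLP arrays. Mpo, the granule peroxidase, gave 1931, 748, 1413, 1885 and 1312 on the F arrays, against a lowest of 7222, a median of 8663 and a highest of 13129.7 on the CLP arrays, a difference of -2.73 (SE 0.20, adjusted p = 1.18e-08). S100a8, a neutrophil protein, gave 5168, 3797, 5111, 4009 and 2247 on the F arrays, against a lowest of 2358, a median of 6953 and a highest of 12047 on the CLP arrays, which overlapped, and was not called (-0.71, adjusted p = 0.177). Csf1r differed by -4.52 (adjusted p = 1.84e-09), and Cd14 was at or near 0 in either population. The members that rose were Cybb, an oxidase subunit that B cells also express (1.68, adjusted p = 3.67e-07), and Ms4a6c (3.40, adjusted p = 5.22e-11), for which another probe set was called lower.

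Of 28 NK and T cell markers, 18 fell and 2 rose, with a median of -1.50 and a summed signal that ran from 5925 to 7498 on the F arrays, against 9529 to 20037 on the CLP arrays. Bcl11b, the T cell commitment factor, gave 4.6, 7.5, 7.4, 3.3 and 2.1 on the F arrays, against a lowest of 514, a median of 553 and a highest of 2891 on the CLP arrays, with a difference of -4.62 (SE 0.35, adjusted p = 2.19e-09). Cd3e averaged 20.8 ± 28.5 on the F arrays and 509.8 ± 489 on the CLP arrays and Nkg7, a granule protein of cytotoxic cells, 16.9 ± 8.49 on the F arrays and 591 ± 127.7 on the CLP arrays. The members called higher were Ifng (1.33, adjusted p = 0.000697) and Cd247 (0.64, adjusted p = 3.74e-05), for which 2 of 4 probe sets were called lower. Of 14 plasmacytoid dendritic cell markers, 9 fell and 1 rose, with a summed signal that ran from 9546 to 10392 on the F arrays, against 11686 to 18062 on the CLP arrays. The defining marker Siglech differed by -3.98 (adjusted p = 2.01e-10), and Pld4, an exonuclease that B cells also express, rose by 2.32 (adjusted p = 2.29e-10).

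Of 12 erythroid markers, 7 fell (4 with CLP arrays 1 to 3 alone) and 0 rose, with a summed signal that ran from 7926 to 10398 on the F arrays, against 12603 to 39977 on the CLP arrays. Car1, carbonic anhydrase of red cells, gave 17.1, 100, 126, 72.7 and 130.2 on the F arrays, against a lowest of 184, a median of 727 and a highest of 4584 on the CLP arrays, where the highest was array 6, and differed by -2.77 (SE 0.60, adjusted p = 0.0022). Hba-a1, alpha globin, stood near the bottom of the scale in either population. Of 10 megakaryocyte markers, 2 fell and 0 rose, with Pf4 at -2.12 (adjusted p = 9.52e-06) and a summed signal that ran from 1255 to 1834 on the F arrays, against 1121 to 3916 on the CLP arrays. The part of these cell types in the differences of other genes was not tested.

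Set along the other populations, the differences between F and CLP arose at different steps. Fraction E is the population just before F. Against the same CLP arrays, 3352 genes were higher in E (18.4%) and 4449 lower (24.5%). Directly between F and E, 239 genes were higher in F (1.31%) and 205 lower (1.13%). These comparisons share arrays with F against CLP, and their values are set side by side only.

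Ms4a1 averaged 113 (CLP), 222 (A), 1386 (B), 1376 (C), 2527 (D), 20773 (E) and 21173 (F). Cd40 averaged 252 (CLP), 404 (A), 336 (B), 825 (C), 984 (D), 5461 (E) and 4957 (F). Scd1 averaged 343 (CLP), 81.1 (A), 983 (B), 2591 (C), 3186 (D), 18615 (E) and 21557 (F). For these 3 genes the level was reached by E, and F minus E was 0.03 (adjusted p = 0.901) for Ms4a1, -0.12 (adjusted p = 0.722) for Cd40 and 0.21 (adjusted p = 0.0615) for Scd1.

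Other genes were higher in F than in E as well. H2-Aa averaged 702 (CLP), 2293 (A), 1088 (B), 2059 (C), 1840.3 (D), 5793 (E) and 13442 (F). Cr2 averaged 88.6 (CLP), 87.5 (A), 57.6 (B), 149.6 (C), 134 (D), 789 (E) and 2073 (F). F minus E was 1.25 (adjusted p = 8.87e-05) for H2-Aa and 1.39 (adjusted p = 3.38e-05) for Cr2, and E minus CLP was 3.02 for H2-Aa and 2.75 for Cr2. The same held for Ciita at 1.28 (adjusted p = 0.000484), Fcer2a at 1.67 (adjusted p = 0.00207), Zfp318 at 1.22 (adjusted p = 3.31e-06), Ccr7 at 1.25 (adjusted p = 0.000899), Marchf1 at 1.54 (adjusted p = 1.62e-06) and Pgap1 at 2.15 (adjusted p = 1.62e-06), each given as F minus E.

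Bcl2 and Gimap4 varied widely among the populations between CLP and F. Bcl2 averaged 8369 (CLP), 15860.4 (A), 1931 (B), 1778 (C), 342 (D), 2964 (E) and 7222 (F). Gimap4 averaged 2067 (CLP), 7538 (A), 1083 (B), 1197 (C), 126 (D), 401 (E) and 3707 (F). F minus E was 1.27 (adjusted p = 2.1e-08) for Bcl2 and 3.10 (adjusted p = 9.15e-10) for Gimap4, so both were called higher in F than in E.

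Genes of the early stages differed in the population with the highest mean. Dntt averaged 14444 (CLP), 9589 (A), 15913 (B), 10452 (C), 2717 (D), 804 (E) and 154 (F). Rag1 averaged 5278 (CLP), 1859 (A), 10192 (B), 7871 (C), 14050.0 (D), 2585 (E) and 2641 (F). Il7r averaged 8529 (CLP), 4600.5 (A), 8347 (B), 8038 (C), 13085 (D), 2698 (E) and 1499.6 (F). Rag1 and Il7r were thus highest in D by mean, and F minus E was -0.78 (adjusted p = 0.0208) for Il7r, 0.06 (adjusted p = 0.926) for Rag1 and -1.07 (adjusted p = 0.638) for Dntt.

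Gins2 and Cdk6 had their lowest means in E and F. Gins2 averaged 2396 (CLP), 617 (A), 1607 (B), 1865 (C), 861 (D), 343 (E) and 321 (F). Cdk6 averaged 6157 (CLP), 3910.4 (A), 7799 (B), 4536 (C), 1611 (D), 1473 (E) and 1461 (F). Neither differed between F and E at the threshold, with -0.02 (adjusted p = 0.99) for Gins2 and -0.02 (adjusted p = 0.975) for Cdk6.

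**Figure D5:**
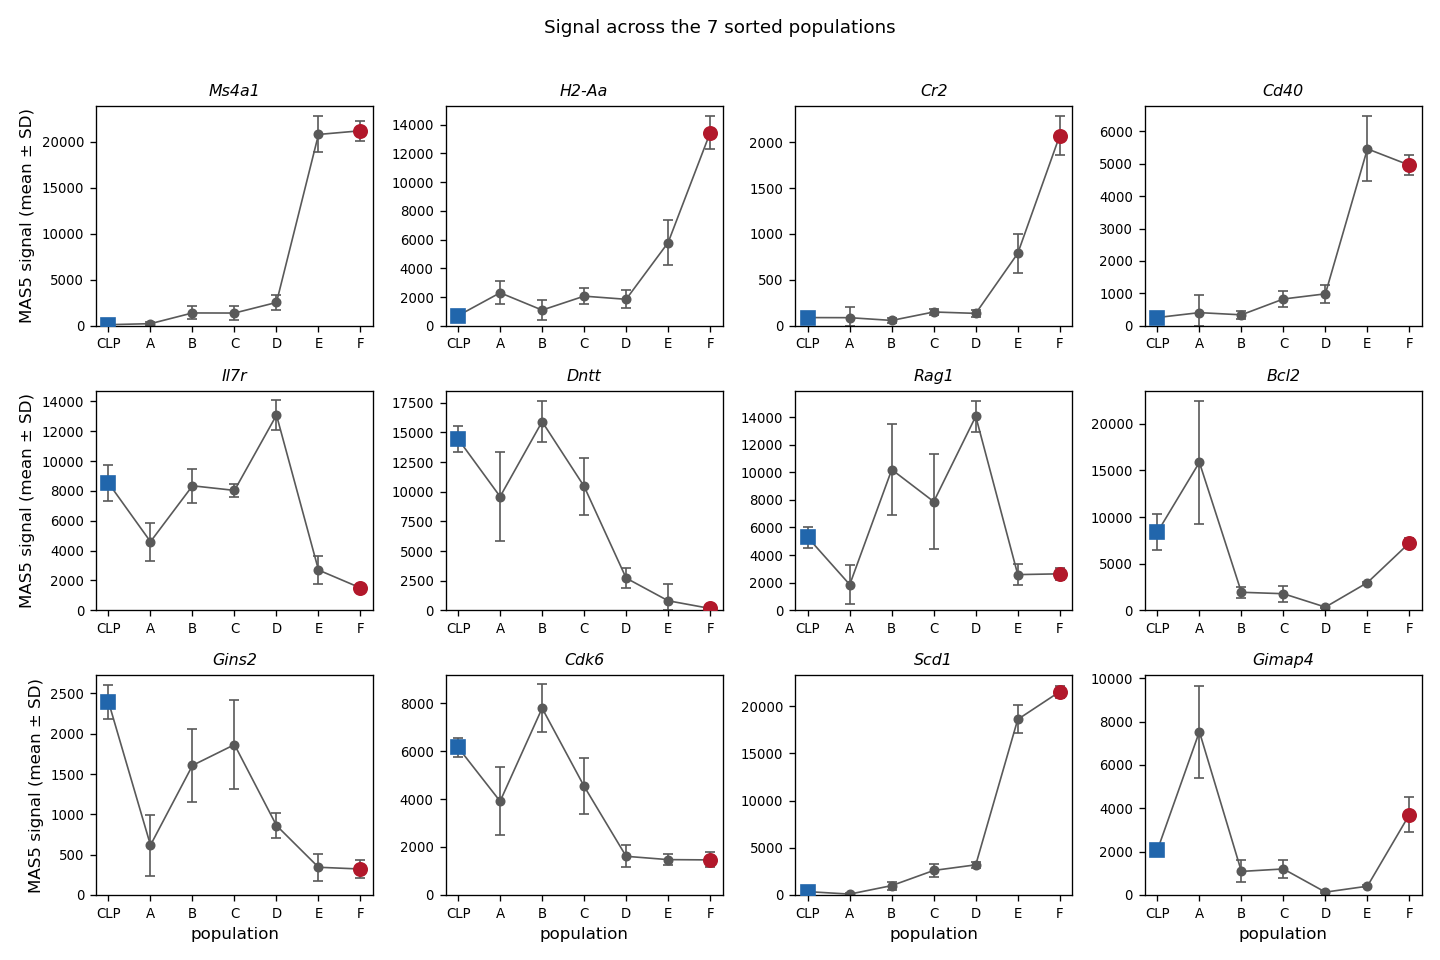
Mean MAS5 signal with SD (linear axis from 0) of 12 genes in CLP (7 arrays), A (7), B (7), C (5), D (5), E (5) and F (5). Ms4a1, Cd40 and Scd1 climb by E and stay level in F, H2-Aa and Cr2 are highest in F, and Bcl2 and Gimap4 are low in D.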

How the data were processed

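Affymetrix arrays were hybridised with RNA of 7 sorted populations. The deposited values are MAS5 intensity signals, per the submitters' processing notes and the values themselves, in which every array has a trimmed mean of 500 (2% trimmed). Probe sets were named by the platform annotation: of 45101, 34945 had 1 symbol, 932 several and 9160 none here, and 64 were controls. Signals were put on the scale log2(signal + 32) and F minus CLP was fitted with limma 3.58.1 (lmFit, eBayes with trend and robust; R 4.3.3, statmod 1.5.0), with no filter on low values. The fit was tested on simulated data. F minus E and E minus CLP were fitted alike. Named genes are the 15 largest called differences in each direction without overlap, and members of 40 gene lists (807 of 901 symbols on the array). The comparison, members and lists were chosen with earlier results of these data known. Arrays were not paired in the fit, and no label says what a shared replicate number means. For 5 same-numbered pairs, deviations from the group means correlated at -0.005 to 0.0643, and 3 of the 5 F arrays correlated best with their own number. These values cannot settle whether same-numbered arrays share a source. Alternatives were the pseudocount, filters, normalization, arrays in the fit, the estimate of the spread, a replicate block, leaving out each array, and the choice of probe set. The splits of the CLP arrays were added after seeing the data.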

Additional observations from a re-analysis of the deposited data

Results flagged for a closer look

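Of 92 groups tested for a single array far from the rest (46 genes in F and in CLP), 7 held one, and chance gives about 1 in 20 groups. Syk was lowest on CLP array 1 at a signal of 926.2, and Vpreb1 was highest on CLP array 4 at 14192.6. Ebf1 was highest on F array 1 at 5949.4, and Cd22 was lowest on F array 5 at 5541.4. Fcer2a was lowest on F array 4 at 367.0, and within CLP it was highest on array 3 at 102.9. Cxcr5 was highest on CLP array 7 at 91.3.

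The probe sets with several symbols or none took no part in the comparison. Of these 10092 probe sets, 2857 were called higher in F (28.3%) and 892 lower (8.84%), with a median log2 difference of 0.26. They carry no gene name here, and the cause of this lean was not tested.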

How the results depend on the processing

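Counts of calls moved most with fewer features or other arrays. With only probe sets that reach the 75th percentile of their array on at least 5 arrays, 10676 were tested, and 3289 probe sets were higher and 4174 lower in F, or 1743 and 2739 genes. With all 41 arrays in one fit 4490 probe sets and 2144 genes were higher, and with CLP arrays 1 to 3 only 4236 and 2044; the cause was not tested for the fit of all arrays, while the other uses fewer samples. Leaving out 1 array gave 6359 to 6811 probe sets higher and 7100 to 7469 lower, or 3009 to 3261 genes higher and 4210 to 4417 lower. With a replicate block, 5653 probe sets were higher and 6717 lower. Whether arrays of the same number share a source is not known, and 3 of the 5 F arrays correlated best with their own number. Median centring made 8446 probe sets higher and 6593 lower, so that 56.2% of calls were higher, against 48.5%, and it moved the median of all probe sets to 0.14, against 0.06. Some genes changed sign, and the cause was not tested. Under quantile normalization Mki67 was at -0.20, Smc4 at -0.07, Npm1 at -0.29 and Atp5a1, with 1 of 3 probe sets called lower, at -0.16. With all probe sets of a gene averaged, which mixes those that disagree, Ighm was at -2.54, Orc1 at -0.30, Smc4 at -0.07, Ncl at -0.14, Rps6, with 1 of 2 probe sets called higher, at 0.04 and Cd247 at -0.76. With CLP arrays 1 to 3 only Igll1 was at 0.73 and Mzb1 at 0.65, and with arrays 4 to 7 only Ighm was at -0.44. Over 234 genes, 2709 of 2777 planned values kept direction and side of the threshold, 41 lost and 17 gained a call and 10 reversed. For the CLP splits these were 672 of 702, 15, 12 and 3, and with 1 array left out 2788 of 2808, 11, 9 and 0. Signals near the bottom of the scale limit the size of a difference.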
